A study of Homo sapiens with 8 samples.

Results

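Peaks downstream of annotated gene ends are poly(A) peaks that overlapped no annotated gene and whose summit lay 600 bp to 10 kb beyond the most distal end of a protein-coding gene, with no gene start within 5 kb. Of the 153624 poly(A) peaks in the list, 1928 (1.26%) met this rule, and they followed 1486 genes. The rule used positions only, so the height of a peak and the sequence around it were free to differ. The libraries were made by poly(A) 3′-sequencing (QuantSeq 3′ REV) of neuroblastoma cells, to ask how inhibition of CDK12 and CDK13, kinases that phosphorylate RNA polymerase II, affects where transcripts end. Kelly wild-type cells, a MYCN-amplified line, and Kelly E9R cells each received DMSO or THZ531, a covalent inhibitor of both kinases, for 6 h, with 2 libraries in each of the 4 groups. Kelly E9R is a derived line in which a point mutation of CDK12 at the cysteine bound by THZ531 arose spontaneously under rising doses of the inhibitor E9. According to the labels THZ531 was given at 400 nM, whereas the methods of the study give a lower dose for these lines. The reads of all libraries were merged before peaks were called, so the list allows no comparison between THZ531 and DMSO or between the lines, and its values have no replicates.

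Cleavage of a pre-mRNA is directed by a hexamer, most often AATAAA or ATTAAA, a short distance upstream of the cut, together with U- and GU-rich sequence downstream and UGUA elements upstream. CPSF binds the hexamer, CstF the downstream sequence and CFIm the UGUA element. RNA polymerase II runs on past the cut before it terminates, and longer 3′ ends than those in a gene catalogue are known from neuronal cells. Oligo(dT), which primes the libraries, can also anneal to A-rich stretches inside a transcript. Peaks that follow a hexamer and peaks that precede genomic A-rich sequence are therefore described separately. Those with a hexamer on the gene strand that are not followed by A-rich sequence are called motif-only peaks.

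Sequences at the 3′ ends of downstream peaks, read in the direction of the gene from GRCh38, are shown to contrast both kinds. In the first group, the capitals mark the hexamer in the last 30 bases of the peak.
GART (chr21:33503170-33503199, minus strand): ataaataAATAAAtaagttatgggttttct
DCAF16 (chr4:17793435-17793464, minus strand): aaagctatAATAAAcattctgtgtgtattg
RBPJ (chr4:26443550-26443579, plus strand): tttcAATACAcctagtctctctttgttttt
ZNF724 (chr19:23219265-23219294, minus strand): gtattttAATAAAtttcttatatattttta
RAB39A (chr11:107968122-107968151, plus strand): tgAATAAAagaatgagaatgagaactatga
HEYL, nearest peak (chr1:39622691-39622720, minus strand): atcAATAAAgcggggaagatgcagtaatgg
The hexamer in these peaks started 22 to 28 bases before the end. In the second group, the 30 bases that follow the peak are shown, with the longest run of A in capitals.
DIP2A, farthest peak (chr21:46573655-46573684, plus strand): AAAAAAAAAAAAAAAAAAAAAAAAAAAAAg
POTEH (chr22:15726862-15726891, plus strand): AAAAAAAAAAAAAAcccaaaaaacaaacaa
POTEF (chr2:130070094-130070123, minus strand): aaaaaacAAAAAAAAAtccagttggaaatt
The longest run of A was 29 bases after the DIP2A peak, 14 after the POTEH peak and 9 after the POTEF peak. The POTEH peak had both features, with AATGAA on the gene strand starting 89 bases before the end. POTEF and POTEH, members of a family of near-identical copies, were chosen after their values were seen, and reads with up to 20 mapping places were kept, so their peaks are uncertain in position.

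Most genes had a single downstream peak. One peak was found after 1127 of the 1486 genes (75.8%), 2 peaks after 287, 3 after 62, 4 after 9, and 5 after HEYL, a Notch-induced transcriptional repressor. Where a gene had several, neighbouring summits were a median of 1876 bp apart (quartiles 763.5 and 3389 bp, 442 intervals). The median distance from the gene end was 4846 bp (quartiles 2284 and 7190 bp, range 603 to 9992 bp). Coding ends on both strands lay within 10 kb of 186 peaks, and the other 1742 peaks could be read on a single gene strand. The region from 200 bp upstream to 600 bp downstream of some annotated transcript end (the transcription end site, TES) was reached by 83 peaks, of which 25 lay at the gene's own end and 58 at the end of another gene. Within 50 bp inside the near limit of 600 bp there were 19 peaks, and within 50 bp outside it 23 otherwise qualifying peaks, with median pileups of 12 and 11 reads. Within 500 bp of the far limit, 74 peaks lay inside and 66 outside, both with a median pileup of 7.

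Downstream peaks were lower than peaks at annotated ends. The number of extended reads at the summit (the pileup) was 9 at the median (quartiles 6 and 12, range 3 to 79), and 64.3% reached 10 reads or fewer. TES peaks of protein-coding genes had a median of 18 (n = 18179), and intergenic peaks over 10 kb from any gene a median of 6 (n = 3761). All peaks of the list other than downstream peaks (n = 151093) had a median of 9 as well. The fold enrichment over local background had a median of 5.88 in downstream peaks, 9.02 in TES peaks and 5.88 in the distant intergenic peaks. The median background behind these folds was 0.530, 1.02 and 0.210 reads per 100 bp. A −log10 q of at least 5 was reached by 67.8% of downstream peaks (95% Wilson interval 65.7 to 69.9%), against 93.5% of TES peaks (two-sided Fisher's exact test, odds ratio 0.146, p = 2.97e-212) and 61.6% of distant intergenic peaks (odds ratio 1.32, p = 3.14e-06). Among all other peaks of the list the share was 73.5%. At a −log10 q of 10 the difference from distant intergenic peaks was 1.79 percentage points (Fisher's exact test, p = 0.0951). How identical reads were treated is not given in the sources used here, so pileups are compared as peak heights and not as transcript levels. Intervals and tests cover counting error only, peaks and genes are not replicates, and peaks of a gene are not independent.

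**Figure D1:**
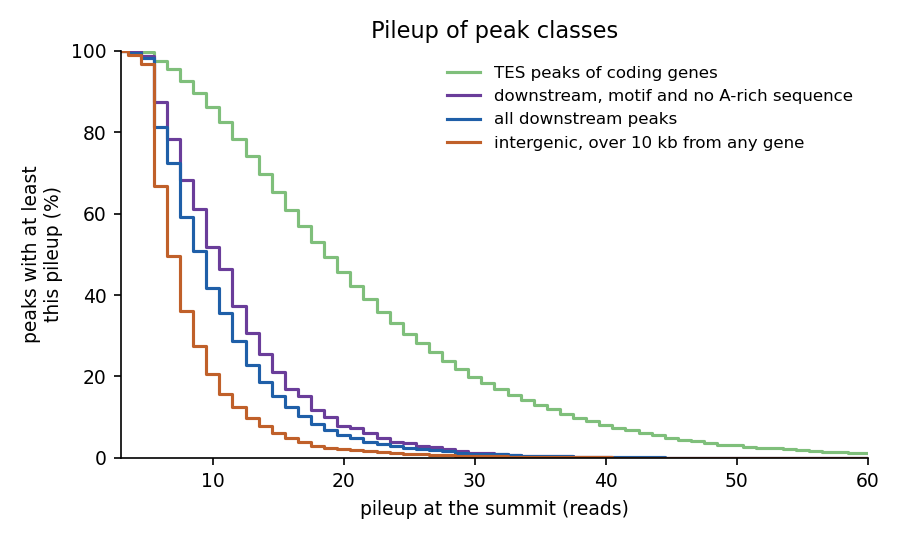
Share of peaks (%) that reach a given pileup at the summit (reads), for TES peaks of protein-coding genes, motif-only downstream peaks, all downstream peaks, and intergenic peaks over 10 kb from any gene. The medians are 18, 10, 9 and 6 reads.

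Downstream peaks carried polyadenylation site (PAS) hexamers in the direction of the gene. Since the peaks have no strand, the 100 bp before the 3′ end of each peak on the gene strand were compared with the mirror-image window that the same peak has on the opposite strand. At least 1 of 12 hexamers was present on the gene strand in 1023 of 1742 peaks (58.7%, 56.4 to 61.02%) and on the opposite strand in 39.6%. The motif was on the gene strand alone in 506 peaks and on the opposite strand alone in 173 (two-sided exact McNemar test, p = 9.66e-39). For AATAAA or ATTAAA the shares were 40.1% and 17.6% (exact McNemar p = 4.26e-52). In TES peaks on 1 strand (n = 17052) the shares for all 12 hexamers were 87.8% and 57.9%, and over both strands of all 153021 peaks on chromosomes 1 to 22, X and Y (306042 windows) a hexamer was found in 48.9%. The excess on the gene strand remained 19.4 percentage points (79.6% against 60.2%, n = 299, exact McNemar p = 2.98e-07) among peaks with no A-rich sequence after the end and fewer than 15 A in the 30 bases before it on both strands, a selection made after the data were seen.

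AATAAA was the hexamer that differed most in number between the strands, with 547 peaks (31.4%) on the gene strand against 12.3% on the opposite strand. ATTAAA followed with 8.73% against 5.28%. Of the other 10 hexamers, 7 were less frequent on the gene strand than on the opposite strand, for instance CATAAA with 1.09% against 2.58%. Each peak was counted for 1 hexamer, AATAAA before the others, so a gain of AATAAA lowers the rest. The position of AATAAA was uneven on the gene strand. It started 16 to 35 bases before the end in 413 of 1742 peaks (23.7%), against 72 (4.13%) on the opposite strand (400 peaks on the gene strand alone, 59 on the opposite strand alone, exact McNemar p = 2.57e-63). The most frequent bin was 21 to 25 bases before the end, with 10.3 motifs per 100 downstream peaks on the gene strand, 1.61 on the opposite strand and 19.7 in TES peaks. The copy closest to 22 bases before the end was taken on both strands.

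**Figure D2:**
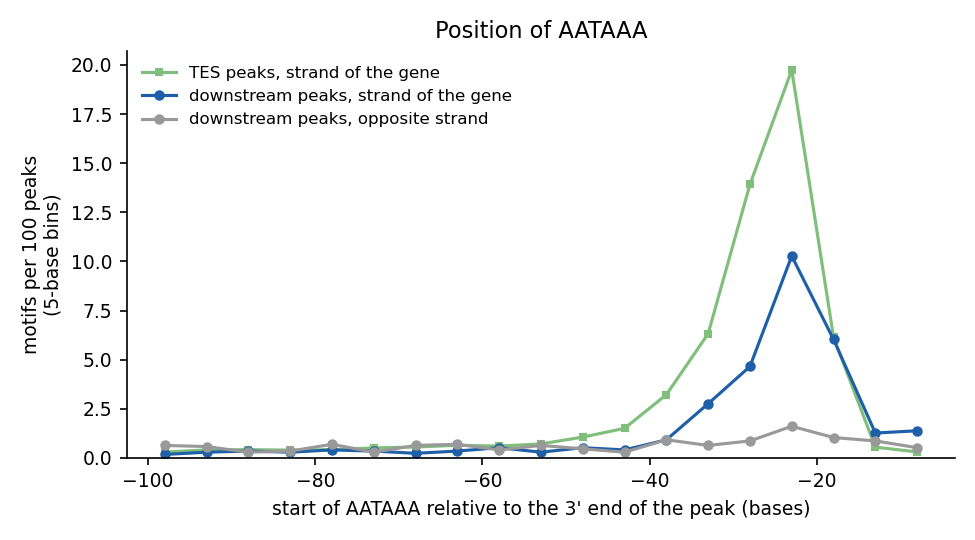
Start of AATAAA relative to the 3′ end of the peak (bases, 5-base bins) against the number of motifs per 100 peaks, for downstream peaks on the gene strand and the opposite strand and for TES peaks on the gene strand. The gene-strand lines peak at 21 to 25 bases, at 10.3 for downstream and 19.7 for TES peaks, and the opposite strand reaches 1.61.

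The other elements of a cleavage site were also more frequent on the gene strand, by smaller margins over all 1742 peaks. TGTA, the DNA form of the CFIm element, was present before the end in 38.9% of downstream peaks against 28.2% on the opposite strand (exact McNemar p = 3.27e-13), and in 52.8% of TES peaks. TGTG, GTGT or TTTT occurred in the 40 bases after the end in 39.0% against 30.7% (exact McNemar p = 3.15e-07), and in 64.0% of TES peaks. Over all windows of the list the shares were 33.4% for TGTA and 34.9% for the downstream sequence. In the 560 motif-only peaks the shares were 57.0% against 35.5% for TGTA and 63.2% against 30.7% for the downstream sequence, given without a test because these peaks were chosen by their sequence on the gene strand.

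A-rich sequence after the peak was more frequent in downstream than in TES peaks. Either 6 A in a row or 7 A of 10 were found in the 50 bp after the end in 966 of 1742 downstream peaks (55.5%, 53.1 to 57.8%) and on the opposite strand in 25.7% (exact McNemar p = 4.66e-53). In TES peaks the order was the reverse, with 20.2% on the gene strand and 26.8% on the opposite strand, and over all windows of the list the share was 43.8%. A long stretch (25 A, 3 mismatches allowed) followed 8.73% of downstream peaks on the gene strand and 2.18% on the opposite strand (exact McNemar p = 2.38e-17). Of these peaks, 560 (32.1%, 29.995 to 34.38%) were motif-only, 463 (26.6%) had both features, 503 (28.9%) had A-rich sequence alone and 216 (12.4%) had neither. Read on the opposite strand, 24.8% of the same peaks were motif-only. On the gene strand, the same classes in TES peaks held 72.9%, 14.8%, 5.31% and 6.91%. Motif-only peaks had a median pileup of 10, and those with A-rich sequence alone a median of 7. A-rich sequence was searched only after the end, and 22.1% of the motif-only peaks had 15 or more A among the 30 bases before it.

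The excess of hexamers on the gene strand extended over the whole distance range. The motif was on the gene strand in 63.3% of peaks at 0.6 to 1 kb against 46.8% on the opposite strand (exact McNemar, Benjamini-Hochberg adjusted over 6 bins, p = 0.00643, n = 109). At 1 to 2 kb the shares were 68.4% and 46.8% (adjusted p = 6.76e-07, n = 231), at 2 to 5 kb 59.8% and 39.4% (adjusted p = 1.72e-13, n = 515) and at 5 to 10 kb 55.0% and 36.98% (adjusted p = 6.87e-18, n = 887). Beyond the limit of the rule an excess was still present, with 51.7% against 38.2% at 10 to 20 kb (exact McNemar, adjusted p = 1.42e-10) and 47.2% against 34.0% at 20 to 50 kb (adjusted p = 3.31e-12). Among peaks with no A-rich sequence on either strand, the excess at 10 to 20 kb was 10.1 points (exact McNemar, adjusted p = 0.0712, n = 168). The excess of 13.2 to 21.6 percentage points was not tested between bins. The share followed by A-rich sequence was 37.6% at 0.6 to 1 kb and 59.98% at 5 to 10 kb, and the share of motif-only peaks was 45.9% and 27.5%. Read on the opposite strand, the motif-only share was 32.1% at 0.6 to 1 kb and 23.6% at 5 to 10 kb, and at 10 to 20 kb it was 23.8% against 22.1% on the gene strand.

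The excess of motifs on the gene strand was found in genes that also had a TES peak. After such genes, 60.3% of 1507 peaks had a motif on the gene strand and 38.2% on the opposite strand (464 on the gene strand alone, 131 on the opposite strand alone). After genes with no TES peak, the shares were 48.5% (42.2 to 54.9%) on each strand of 235 peaks, with 42 peaks on each strand alone. The split between strands differed between both kinds of gene (two-sided Fisher's exact test on the peaks with a motif on 1 strand only, odds ratio 3.54, p = 2.03e-07). This comparison was chosen after the data were seen.

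**Figure D3:**
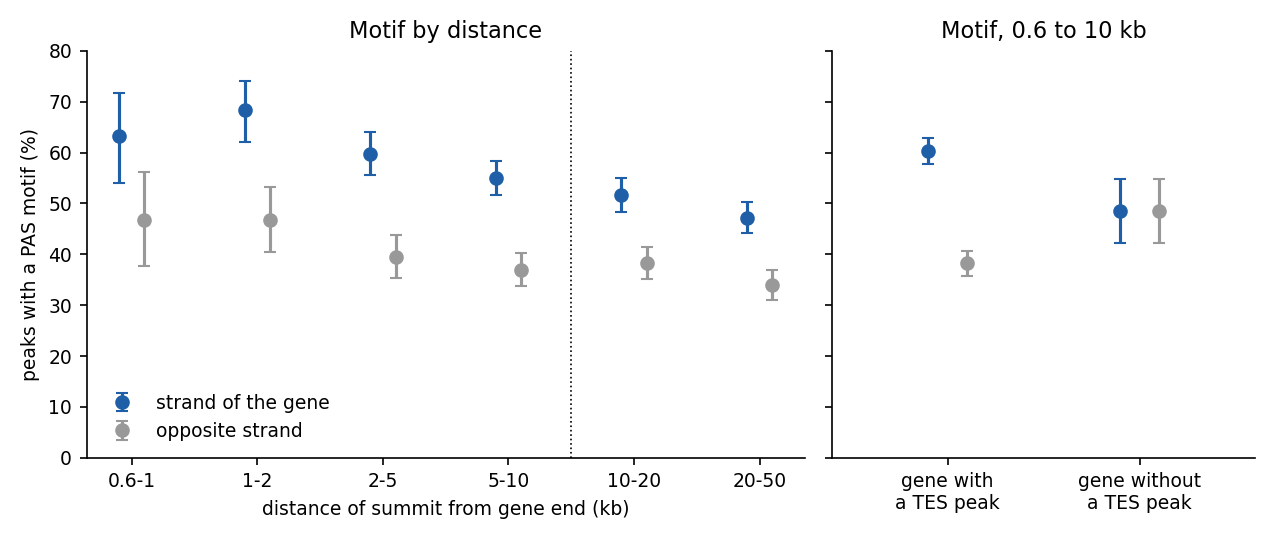
Share of peaks (%) with 1 of 12 PAS hexamers in the 100 bp before the 3′ end, on the strand of the gene and on the opposite strand, by distance of the summit from the gene end (kb, left; the dotted line marks 10 kb) and for downstream peaks by whether the gene had a TES peak (right). Bars are 95% Wilson intervals. The gene strand is above the opposite strand in every bin, whereas after genes without a TES peak both stand at 48.5%.

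Genes with a peak at their annotated end had downstream peaks more often. Among the 8749 protein-coding genes with at least 1 kb of sequence in which a downstream peak could count, 16.5% had one, and 6.25% had a motif-only one. With a TES peak the share was 23.6% (1229 of 5212 genes, 22.4 to 24.8%), and without one 6.08% (215 of 3537, 5.34 to 6.91%; two-sided Fisher's exact test, odds ratio 4.77, p = 1.05e-115). The difference was present at each amount of room. In genes with 1000 to 4963 bp of such sequence the shares were 12.9% and 5.04%, in genes with 4966 to 9400 bp 26.0% and 6.02%, and in genes with the full 9401 bp 30.8% and 6.90%. By quartile of the TES pileup, from 3 to 14 reads up to 30 to 100 reads, the share with a downstream peak was 17.6% (15.7 to 19.6%), 24.1%, 26.9% and 27.1% (24.8 to 29.6%). For motif-only peaks the 4 shares were 6.06%, 8.99%, 11.0% and 11.5%. The median room fell from 8550 to 6972 bp across the same quartiles.

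Per Mb of sequence in which a peak could count, downstream peaks were densest close to the gene and again past 5 kb. After genes with a TES peak there were 59.7 peaks per Mb at 0.6 to 1 kb, 36.5 at 3 to 4 kb, 41.3 at 4 to 5 kb and 53.6 at 5 to 6 kb. After genes without one the density was 18.8 per Mb at 0.6 to 1 kb, 12.97 at 4 to 5 kb and 8.20 at 5 to 6 kb. The local background of the peaks moved with the distance. Its median was 0.60 reads per 100 bp at 4 to 5 kb and 0.365 at 5 to 6 kb, and the median pileup was 9 and 7 reads at the same distances. MACS2 takes this background from windows around the summit, which near a gene hold reads of the gene itself, so that a lower peak passes the caller where the background is lower. The part of the background in the density was not tested.

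**Figure D4:**
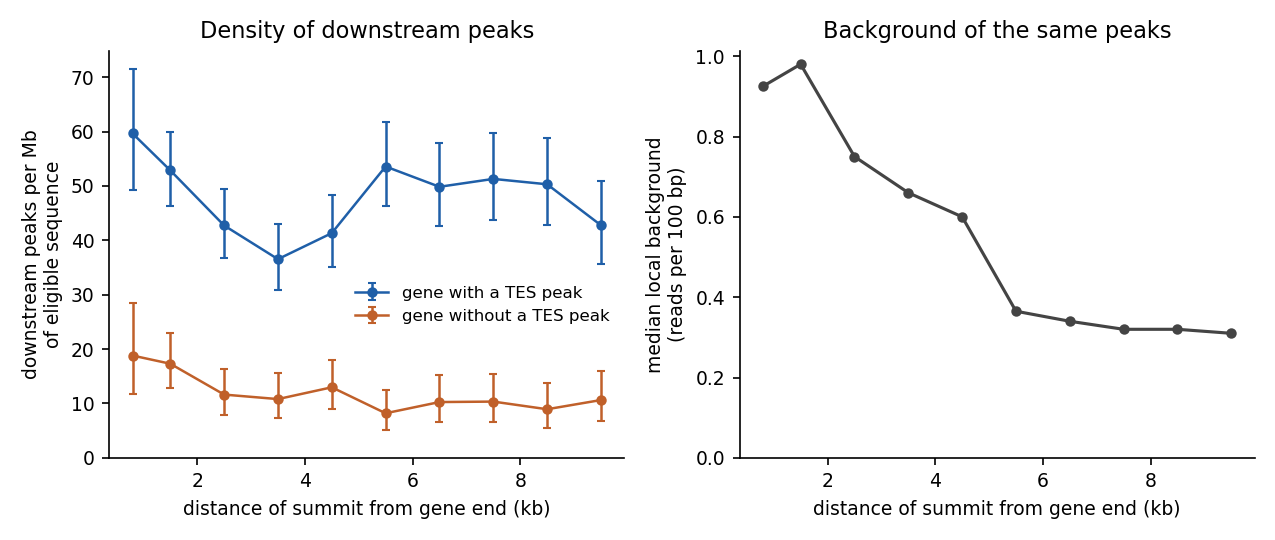
Left, downstream peaks per Mb of eligible sequence against distance of the summit from the gene end (kb), for genes with and without a TES peak, with exact Poisson 95% intervals. Right, median local background of the same peaks (reads per 100 bp), which drops from 0.60 at 4 to 5 kb to 0.365 at 5 to 6 kb, where the density after genes with a TES peak goes from 41.3 to 53.6 per Mb.

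The downstream peak was usually the lower peak of its gene. In 1264 genes with both, the strongest downstream peak was lower than the strongest TES peak in 1139 (90.1%), equal in 33 and higher in 92 (7.28%), with a median ratio of 0.416 (quartiles 0.286 and 0.653). Where a gene had a motif-only downstream peak, the strongest of these was higher in 41 of 488 genes (8.40%), and the ratio was 2 or more in 7. The highest ratio of these was 2.90, in USP6NL, which encodes a GTPase-activating protein for Rab proteins, with pileups of 29 downstream and 10 at the TES. Next were ZNF292, a zinc finger protein, with 17 and 7, and KCNK3, a potassium leak channel, with 37 and 16. GHRHR, the receptor for growth hormone-releasing hormone, had 11 and 5, and SLC9C2, of the sodium/proton exchanger family, had 13 and 6. Of these 5 peaks, the one of KCNK3 had its hexamer 21 to 25 bases before the end, where AATAAA was most frequent. In USP6NL it was an AATGAA starting 88 bases before the end, with TATAAA 17 bases from the end of the opposite strand, and in SLC9C2 an AAGAAA 76 bases before the end. The GHRHR peak overlapped the RefSeq long noncoding RNA genes LOC105375222 and LOC105375221.

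**Figure D5:**
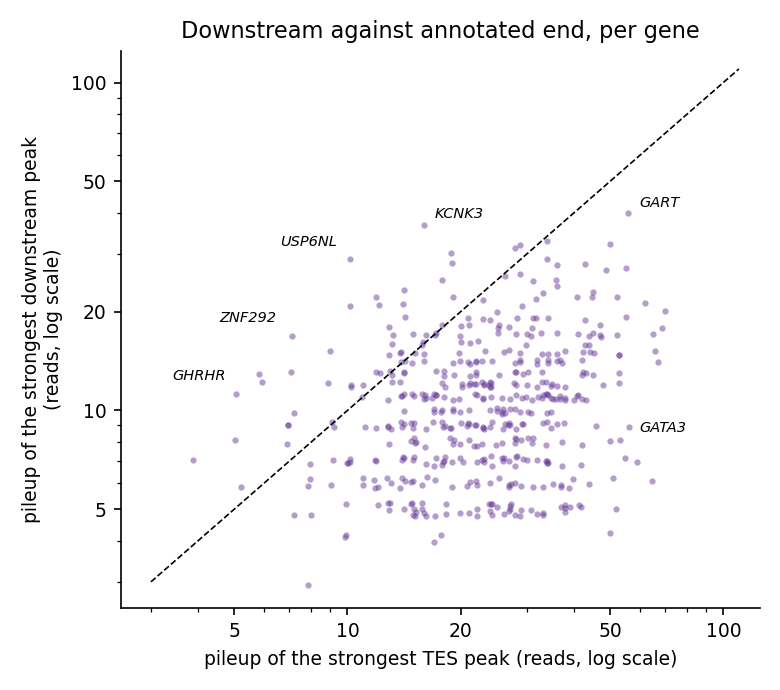
Pileup of the strongest motif-only downstream peak against that of the strongest TES peak of the same gene (reads, both axes logarithmic), 1 point for each of 488 genes, with a small random offset so that equal values can be seen. On the dashed line both are equal; 41 genes lie above it, with USP6NL (29 against 10) and KCNK3 (37 against 16) among the farthest, and GART (40 against 56) is the highest downstream peak.

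Among motif-only peaks, the 15 with the highest −log10 q lay after KCNK3, ZNF800, GART, DDRGK1, ZNF669, CALCOCO2, DCAF16, EEFSEC, NAA50, RBPJ, THOC5, SPATA5, COA4, PGA5 and TPGS1. The hexamer started 96 bases before the end in ZNF669, 83 in PGA5, 66 in CALCOCO2, 59 in EEFSEC and 48 in TPGS1. In the rest of the 15 peaks it started 20 to 34 bases before the end. On the opposite strand the ZNF669, CALCOCO2 and EEFSEC peaks had AATAAA, starting 84, 36 and 35 bases before the end. The KCNK3 peak (4371 bp from the end) reached a fold of 22.6 and a −log10 q of 46.6. The ZNF800 peak (chr7:127342861-127343010, 3855 bp) reached a pileup of 37 with no TES peak at the annotated end, and it overlapped the RefSeq gene of the same name. It had AATAAA on both strands, starting 32 bases before the end of the gene strand and 15 before that of the opposite strand.

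GART encodes an enzyme of purine synthesis. Its peak (chr21:33503170-33503302, 697 bp from the end) reached a pileup of 40, against 56 at the TES, with AATAAA starting 23 bases before the end and no hexamer on the opposite strand. RBPJ, the DNA-binding effector of Notch signalling, had a peak 8357 bp away (chr4:26443293-26443579) with a pileup of 25 against 36 and AATACA 26 bases before the end. After DCAF16, a substrate receptor of a cullin-RING ubiquitin ligase, the peak lay 7136 bp away (chr4:17793435-17793553) with a pileup of 22 against 32, inside the RefSeq gene of the same name, with AATAAA at 22 bases. These peaks were 0.714, 0.694 and 0.688 times as high as the TES peaks of their genes. On the opposite strand the RBPJ peak had no hexamer, and the DCAF16 peak had AATAAA starting 66 bases before the end.

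NAA50, an N-terminal acetyltransferase, had a peak 3080 bp away with a pileup of 25 against 31, and AATAAA on the gene strand alone. DDRGK1, which acts in protein UFMylation, had a peak 1517 bp away with a pileup of 31 against 28. In this peak 22 of the last 30 bases were A. The peaks after THOC5, of the mRNA export complex THO, and COA4, a cytochrome c oxidase assembly factor, had coding ends on both strands within 10 kb and could not be assigned to a strand. Their pileups were 32 and 33. The EEFSEC peak, 629 bp from the end of the selenocysteine elongation factor gene, lay in the gene's own TES window and had a pileup of 28 against 19. Of the 15 peaks, 2 reached the end of another gene. The CALCOCO2 peak reached SUMO2P17, and the PGA5 peak reached VWCE.

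Downstream peaks also followed 222 genes with no TES peak, and in 69 of these genes a motif-only peak was found. Of all 1486 genes with a downstream peak, 557 had a motif-only one. As given above, peaks after genes with no TES peak had a hexamer in 48.5% on each strand. The highest motif-only peaks after such genes were those of ZNF800, PGA5, TPGS1, RAB39A and ZNF724. RAB39A, a small GTPase, had a peak 4606 bp away (chr11:107968037-107968151) with a pileup of 27 and AATAAA 28 bases before the end. ZNF724, a zinc finger gene, had a peak 2263 bp away (chr19:23219265-23219408) with a pileup of 25 and AATAAA 23 bases before the end. The ZNF724 peak also had a hexamer on the opposite strand. The peak after TPGS1, a subunit of tubulin polyglutamylase, lay 1139 bp away with a pileup of 22.

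Genes with many downstream peaks differed in the sequence at these peaks. The 5 HEYL peaks lay 692, 1741, 4492, 7784 and 9726 bp from the end with pileups of 11, 13, 13, 20 and 10, against 17 at the TES. The nearest and the farthest had a hexamer and no A-rich sequence, the other 3 were followed by A-rich sequence, and the highest, at 7784 bp, had no hexamer. On the opposite strand the nearest and the farthest also had a hexamer. RRM2, the small subunit of ribonucleotide reductase, had 4 peaks with pileups of 29, 13, 11 and 14 against 67 at the TES, and the highest was followed by A-rich sequence. The 4 peaks of DIP2A all overlapped the RefSeq gene of the same name, and the farthest preceded the run of 29 A shown above. MAN2B2, a lysosomal mannosidase, and ZNF543 had 4 peaks each, with pileups of 6 to 15 and 6 to 18, and none of the ZNF543 peaks was followed by A-rich sequence.

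The highest peaks without a motif or A-rich sequence on the gene strand had a hexamer on the opposite strand in 5 of 5 cases, a description of peaks chosen for their height. Over all 1742 peaks on a single gene strand the opposite strand had one in 39.6%, and the difference was not tested. Of the 5 highest peaks, 4 lay after OLFML2B (pileup 33), BYSL (41), SYNPO2 (26) and TMEM207 (24). Coding ends lay on both strands of the OLFML2B peak. The BYSL peak reached the TES window of CCND3, which encodes cyclin D3. A RefSeq tRNA gene was overlapped by 6 downstream peaks, with pileups of 5 to 26, and 1 of them had a hexamer on the gene strand. The highest 2 were the peak after HMGN4, at the tRNA gene TRK-CTT2-4, and a peak after RCSD1, at TRP-CGG1-1, both with a pileup of 26. These were looked up after their values were seen. So were the highest −log10 q of any downstream peak, 49.4 after POTEH, and the highest pileup, 79 after RGS4, a regulator of G protein signalling. Both were followed by A-rich sequence.

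A second gene catalogue placed part of the downstream peaks inside genes. Of 1928 peaks, 315 (16.3%, 14.8 to 18.1%) overlapped a RefSeq gene (GRCh38.p14), 141 of them the gene of the same symbol. The share was 15.5% for motif-only peaks and 16.7% for the others. It was 23.9% for intergenic peaks over 10 kb from any GENCODE gene.

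Lists of genes relevant to these cells were counted beside the share of 16.5% over all genes with room and of 23.6% over those with a TES peak. Of all 8749 coding genes with room, 5212 had a TES peak. All 14 markers of Kelly cells, among them MYCN, DBH and TH, had a TES peak, with pileups of 21 to 121. Of 10 markers of other cells, COL1A1 (16), EPCAM (6) and GFAP (16) had one, and ALB, CD3E, PTPRC, COL1A2, KRT5, HBB and PECAM1 had none. Downstream peaks followed 6 of 14 adrenergic neuroblastoma transcription factors with room, 5 of 11 cleavage and polyadenylation factors, 9 of 27 ribosomal protein genes and 4 of 16 homologous recombination and Fanconi genes. They followed 2 of 12 catecholamine and secretory granule genes, 2 of 12 replication-dependent histone genes, 2 of 18 neuronal RNA-binding protein genes and 1 of 15 immediate early genes. In none of these lists did more than 3 genes have a motif-only downstream peak.

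Among the transcription factors, GATA3, which acts in the sympathetic lineage, had a peak 8913 bp away (pileup 9 against 56 at the TES) with AATAAA 19 bases before the end and no hexamer on the opposite strand. ISL1, a LIM homeodomain factor, had a peak 6028 bp away (pileup 8 against 50) with AATAAA at 51 bases. On the opposite strand this peak had ATTAAA at 6 bases. The peaks of KLF7, GATA2 and LMO1 were not motif-only.

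Of the catecholamine genes, SLC6A2, the noradrenaline transporter, had a peak 6516 bp away with AATAAA at 26 bases, with a pileup of 5 against 39. The MAOA peak (pileup 17 against 26), 1820 bp past the gene of a monoamine-degrading enzyme, had AATAAA at 18 bases and A-rich sequence after it. The CHGA peak, 612 bp past the gene of chromogranin A, lay in the gene's own TES window. CPSF2, a subunit of the cleavage factor CPSF, had 2 peaks at 3851 and 7698 bp with AATAAA at 23 bases and ATTAAA at 25 bases, and pileups of 7 and 6 against 10. Both CPSF2 peaks also had a hexamer on the opposite strand. The peaks of PAPOLA and PAPOLG, which encode poly(A) polymerases, and of WDR33, the CPSF subunit that contacts the hexamer, were all followed by A-rich sequence. The TTF2 peak reached the end of TRIM45.

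MRE11, a nuclease of DNA break repair, had a peak 3997 bp away with AATAAA at 21 bases and a pileup of 12 against 35. XRCC2, a homologous recombination gene, had 2 peaks at 3290 and 8951 bp with AATACA at 17 and ATTAAA at 21 bases, with pileups of 15 and 7 against 36. BTG2, an antiproliferative immediate early gene, had a peak 1725 bp away with AATAAA at 18 bases and a pileup of 14 against 19. Of the ribosomal protein genes, RPL11 had a peak 8730 bp away with AATAAA at 26 bases (12 against 53), RPL37 a peak 6855 bp away with AATAAA at 20 bases (6 against 33), and RPL3 a peak 8348 bp away with ATTAAA at 30 bases (5 against 38). In these examples the downstream peak was lower than the TES peak of the gene. The peaks of MRE11, XRCC2, BTG2, RPL11 and RPL37 also had a hexamer on the opposite strand, and the RPL3 peak had none there.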

How the data were processed

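Poly(A) 3′-sequencing was performed by the authors on 8 libraries (4 groups of 2, biological duplicates per the labels). Reads were trimmed with BBDuk, mapped with STAR 2.5.1b to GRCh38 with ERCC sequences and up to 20 mapping places, and merged over all samples. Peaks were called with MACS2 2.1.1 (no model, reads extended to 100 bp). The deposited list gives for each peak a fold enrichment (the ratio of summit pileup to local background, each plus 1), and the −log10 p-value and −log10 q-value, all as the authors deposited them. The deposited score was not used. The depth of each library is unknown from this list, which has no values per sample and no strand. No molecular identifiers are stated, so intervals cover counting error only.

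Pileup and background were recovered from the fold and the Poisson p-value, as tested on simulated peaks. In 100% of peaks a whole pileup gave back the deposited −log10 p-value to within 0.001. Genes and ends came from GENCODE 44, other genes from RefSeq (GRCh38.p14), and sequences from GRCh38. The 12 hexamers, of which the earliest in this order was counted, were AATAAA, then ATTAAA, then AGTAAA, then TATAAA, then AATATA, then AATACA, then CATAAA, then GATAAA, then AATGAA, then ACTAAA, then AAGAAA and then AATAGA. Motifs were read in the 100 bp before the end, A-rich sequence in the 50 bp after it. TES windows ran from 200 bp before to 600 bp after transcript ends. Tests were exact McNemar and Fisher tests (scipy 1.17.1), with 95% Wilson intervals. Alternatives changed distances, q thresholds, motif sets, windows and annotation. Named peaks were the 15 motif-only peaks with the highest −log10 q (1 per gene), the 5 genes with most peaks (9 genes tied at 4 peaks, taken by −log10 q), the 5 highest of genes without a TES peak, the 5 highest ratios to the TES peak, such peaks of listed genes, and the 5 highest without a motif. Members and lists were chosen with earlier results of these data known. Some results of the named peaks are not reported here.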

Additional observations from a re-analysis of the deposited data

How the results depend on the processing

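The number of downstream peaks was 1003 with a maximum distance of 5 kb and 355 with a −log10 q of at least 10, both outside 1.5 times the 1928 reported, whereas a −log10 q of at least 5 left 1308. The difference from distant intergenic peaks was 1.79 percentage points (Fisher's exact p = 0.0951) at a −log10 q of 10, in place of 6.26 points at 5. The motif excess at 10 to 20 kb was 10.1 points (adjusted exact McNemar p = 0.0712, n = 168) among peaks with no A-rich sequence on either strand; the cause was not tested. No other alternative that was run changed a direction or a call, and the share of downstream peaks with a motif on the gene strand was above that on the opposite strand in each. Leaving out the peaks that reach a TES window, chosen after seeing the data, left 1845 peaks and 59.2% against 39.4% with a motif.

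No paired analysis was possible because the list was called on the merged reads and holds no values per library. For the same reason no replicate was left out, and the planned comparison of THZ531 with DMSO was not run. The planned overlap with RefSeq exons was not run, since the RefSeq table used here gives whole genes. Low pileups limit each single peak, as 64.3% rest on 10 reads or fewer.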
